A study of Homo sapiens with 24 samples.

Results

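ITGB8 encodes the beta-8 chain of the integrins, and it was examined here with the alpha chain it pairs with, ITGAV, and with 8 further integrin genes: the beta chains ITGB1, ITGB3 and ITGB5 and the alpha chains ITGA2, ITGA3, ITGA5, ITGA6 and ITGA7. These 10 genes were chosen by symbol among the 60675 genes of the table, and ITGB8 was picked because it had one of the largest falls at the high dose of each extract. The cells were SW1783, an established human astrocytoma line and not a primary astrocyte culture. They were kept for 24 h with an extract of Schisandrae Fructus, the fruit of Schisandra chinensis, or with the vehicle, 0.1% DMSO. The water extract (WESF) was given in batch A at 20, 100 or 500 μg/mL (low, medium and high), beside vehicle A. The ethanol extract (EESF) was given in batch B at 12.4, 62 or 310 μg/mL, beside vehicle B. In the study's preliminary cytotoxicity screen, the high dose of EESF matched its 20% inhibitory concentration, and that of WESF was not toxic. Each of the 8 groups had 3 libraries, 24 in all, with totals of 18727797 to 32567395 expected counts per library. Extract, dose and batch differed together, so that WESF and EESF cannot be told apart from their batches.

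An integrin is a pair of 1 alpha and 1 beta chain that spans the plasma membrane, binds matrix or cell-surface proteins outside and connects to actin through adaptors inside. The beta-8 chain pairs with the alpha-v chain alone, and this receptor binds the RGD motif (arginine, glycine, aspartate) in the latent form of TGF-beta and makes the growth factor available to its receptors. In the brain it is known from astrocytes and neuroepithelial cells, where its loss leaves vessels unstable. The alpha-v chain also pairs with the beta-1, beta-3 and beta-5 chains, and the beta-1 chain pairs with the alpha-2 chain (a collagen receptor), the alpha-5 chain (the fibronectin receptor) and the alpha-3, alpha-6 and alpha-7 chains (laminin receptors).

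The label of the line was set beside cell type markers, as levels per length (RPKM, CPM divided by the exon length in kilobases). The astrocyte markers GFAP, S100B, AQP4, ALDH1L1 and SLC1A2 were at or near 0 in vehicle A, with no library above 14 counts. SLC1A3, a glutamate transporter, stood at 1.5 RPKM, GJA1, the gap junction protein of astrocytes, at 60.2 RPKM and SOX9, a glial transcription factor, at 20.8 RPKM. The mesenchymal and glioma markers VIM and CD44 were at 931.5 and 283.9 RPKM, and the fibroblast collagen genes COL1A1 and COL1A2 at 421.6 and 168 RPKM. The cells thus carried few of the defining transcripts of astrocytes. Of the neural stem markers, NES was at 1.31 RPKM and SOX2 at 0, and of the neuronal ones SYT1 was at 2.67, SNAP25 at 1.38 and RBFOX3 and STMN2 under 0.02 RPKM. Markers of oligodendrocytes, microglia and endothelium were near 0, of which PTPRC, the common leukocyte antigen, was the highest at 0.659 RPKM in vehicle A. Over the 8 groups the mean of SLC1A3 ran from 0.488 to 1.5 RPKM, that of SNAP25 from 0.434 to 1.54 RPKM, that of PTPRC from 0.122 to 0.673 RPKM and that of ACTA2, a contractile actin of pericytes, from 9.03 to 18.2 RPKM. The means of GJA1 ran from 50.3 to 60.9 RPKM, those of SOX9 from 12.4 to 21.9 RPKM and those of CD44 from 172.3 to 289.8 RPKM, and their part in the results was not tested.

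The vehicle libraries of both batches were compared before the treated ones. Libraries with the same number in vehicle A and vehicle B deviated from their group means together, with correlations across genes of 0.36, 0.16 and 0.26, against -0.28 to 0.03 for different numbers. Their counts still differed by more than sampling noise (chi-square per degree of freedom 3.33 to 3.61), so they were not treated as 1 library. The labels do not say whether they came from the same cultures, and the WESF and EESF comparisons may therefore share control material. For the same reason, p-values measure the spread between these libraries, which may be technical.

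ITGB8 (ENSG00000105855) lies on chromosome 7 of GRCh38 from 20330702 to 20415754, on the plus strand. RefSeq's promoter table for GRCh38.p14 held windows of 300 bases for 7 of the 10 genes, and the stretch of the ITGB8 window that lies ahead of the gene's first annotated base, chr7:20330650-20330701, is shown because ITGB8 carried the largest change of the 10. Capitals mark matches to CCAAT and to GGGCGG, the latter on the minus strand.
ITGB8: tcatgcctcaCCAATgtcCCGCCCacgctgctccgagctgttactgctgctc
In the whole window of ITGB8, with both strands searched, GGGCGG matched at 2 places and CCAAT at 1. GGGCGG was found in 45% and CCAAT in 34.6% of the 35116 windows of this length. The cAMP response element TGACGTCA had no match and was held by 1.8% of all windows. Nor did the AP-1 site TGANTCA (held by 7.7%), the E-box CACGTG (held by 7.3%) or the TATA box TATAAA (held by 11.5%) match there. These matches describe the letters of the window and not the binding of any factor.

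The level of ITGB8 was measured as CPM, the share of a library's TMM-scaled total that a gene takes, and the values follow by library. In vehicle A it was 44.7, 48.1 and 56.2 CPM. With WESF it was 44.3, 43.6 and 42.7 CPM at the low dose, 32.2, 29.4 and 25.7 CPM at the medium dose and 4.79, 4.81 and 5.52 CPM at the high dose. The medium and high doses did not overlap any other group of the batch, and the low dose lay below every vehicle library. In the high-dose WESF libraries 10.1% of the vehicle mean was left, 5.04 ± 0.416 against 49.7 ± 5.91 CPM (SD, n = 3). In such bulk RNA, fewer cells with the transcript and less of it per cell cannot be told apart.

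Batch B gave a like order. Vehicle B had 46.1, 49.6 and 55.4 CPM of ITGB8. EESF left 41.2, 42.9 and 44.7 CPM at the low dose, 34.5, 34.3 and 34.3 CPM at the medium dose and 5.41, 5.59 and 5.18 CPM at the high dose. None of these groups overlapped the next in order, and 10.7% of the vehicle mean was left at the high dose. In both vehicles the library numbered 3 had the most ITGB8 and the library numbered 1 the least.

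**Figure D1:**
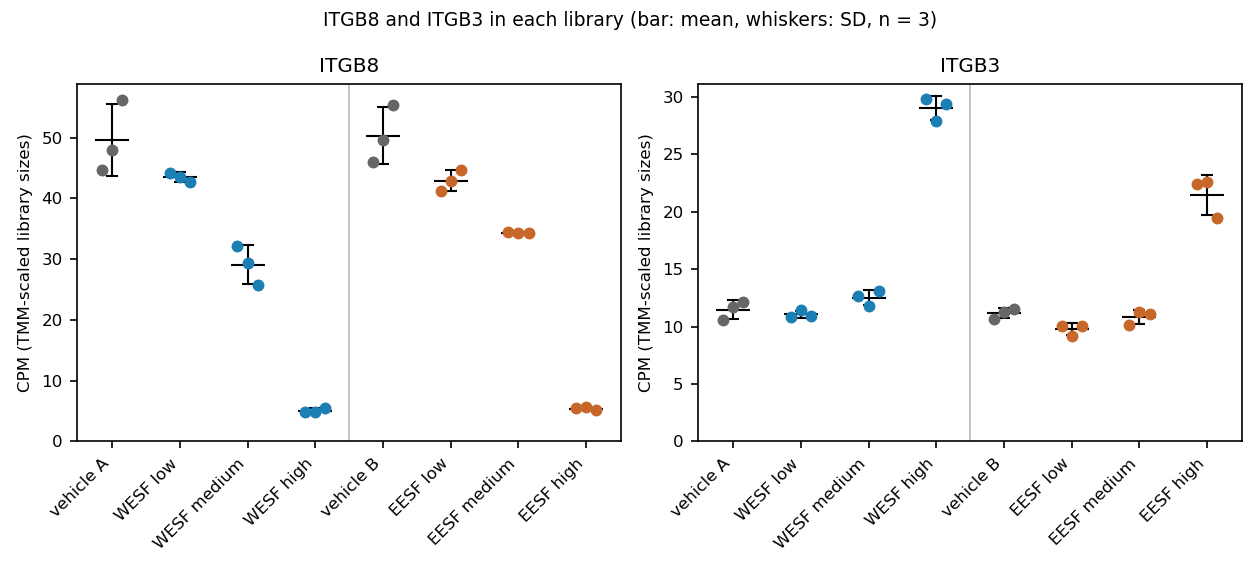
Each point is a library, with CPM on the vertical axis, from 0, and the 8 groups on the horizontal axis (batch A left and batch B right of the grey line); bars are means and whiskers SDs over 3 libraries. ITGB8 stepped down with dose to 5.04 CPM with WESF and 5.4 CPM with EESF at the high dose, while ITGB3 stayed near the vehicles at the low and medium doses and was higher at the high dose.

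Set against the vehicle, ITGB8 at the high dose was at -3.30 (SE 0.099) with WESF and at -3.22 (SE 0.088) with EESF on the log2 scale. These values chose the gene and are given as a description, with no test. Counted from the largest fall, ITGB8 stood at place 9 of 13129 genes with WESF and at place 5 of 13092 with EESF. Set against the low dose of each extract instead, they were -3.11 and -2.99.

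ITGB3 encodes the beta-3 chain, another partner of alpha-v. It was the other member past a 1.5-fold difference at the high doses, in the opposite direction to ITGB8. It had 10.6, 11.7 and 12.1 CPM in vehicle A and 29.9, 27.9 and 29.4 CPM with the high dose of WESF, or 253% of the vehicle mean. In vehicle B it had 10.7, 11.3 and 11.6 CPM and with the high dose of EESF 22.4, 22.6 and 19.4 CPM, or 192%. Treated and vehicle libraries did not overlap in either batch. On the log2 scale these differences were 1.34 (SE 0.068) and 0.94 (SE 0.082), again as a description. The low and medium doses ran from 9.2 to 13.1 CPM over 12 libraries, close to the vehicles.

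With the other alpha-v partners the picture differed from gene to gene at the high dose. ITGAV (alpha-v) itself had 146.4, 168.8 and 172.9 CPM in vehicle A and 180.6, 172.9 and 178.2 CPM with the high dose of WESF, so that the highest vehicle library lay just under the lowest treated one. In vehicle B it had 145.1, 168.7 and 168 CPM, and with the high dose of EESF 140.3, 118.4 and 118.8 CPM, below all vehicle libraries. ITGAV thus stood 0.12 (SE 0.056) above the vehicle on the log2 scale with WESF and at -0.35 (SE 0.077) with EESF, opposite signs. With the low dose of EESF in place of vehicle B, ITGAV was at -0.09 and ITGB1 at -0.05, so these values depend on the reference. ITGB5 (beta-5) had log2 fold changes of 0.02 (SE 0.042) and 0.03 (SE 0.052), and ITGB1 (beta-1) of -0.01 (SE 0.044) and -0.16 (SE 0.05). None of these 3 differed from the vehicle by as much as ITGB8 or ITGB3.

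Among the alpha chains that pair with beta-1, ITGA2, the collagen-binding alpha-2 chain, had 215.6, 229 and 252.3 CPM in vehicle A and 327.4, 303.4 and 309.7 CPM with the high dose of WESF. On the log2 scale this was a difference of 0.43 (SE 0.055), with no overlap. With the high dose of EESF it had 288.7, 243.2 and 224.1 CPM against 221.7, 228.4 and 254.6 CPM in vehicle B, and the groups overlapped (0.10, SE 0.084). With the low doses in place of the vehicles, ITGA2 was at 0.55 with WESF and at 0.29 with EESF. The laminin-binding ITGA6 had log2 fold changes of 0.40 (SE 0.052) with WESF and 0.16 (SE 0.07) with EESF. The fibronectin-binding ITGA5 had 0.22 (SE 0.044) and 0.29 (SE 0.048), ITGA3 had 0.01 (SE 0.041) and 0.16 (SE 0.053) and ITGA7 had 0.03 (SE 0.058) and -0.03 (SE 0.061). ITGA5 and ITGA6 were higher than the vehicle in all libraries of both high doses, and ITGA7 overlapped its vehicle in both batches.

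A gene was called a DEG where its fold change exceeded 1.5 and its adjusted p was under 0.05 over all protein-coding genes tested (edgeR's quasi-likelihood test, Benjamini-Hochberg). By this rule 2 of the 10 integrin genes, 1 upregulated and 1 downregulated, were DEGs at the high dose of WESF, where 24.1% of all genes tested were, and the same 2 at the high dose of EESF, where 17.4% were. Groups did not overlap for 6 of the 10 genes with WESF, against 71.5% of all genes, and for 7 of the 10 with EESF, against 62.8%. The rule for ITGB8 used these contrasts, so nothing is read from these counts. The median log2 fold change of the 10 was 0.07 with WESF and 0.06 with EESF, beside 0 and 0.01 over all genes tested.

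**Figure D2:**
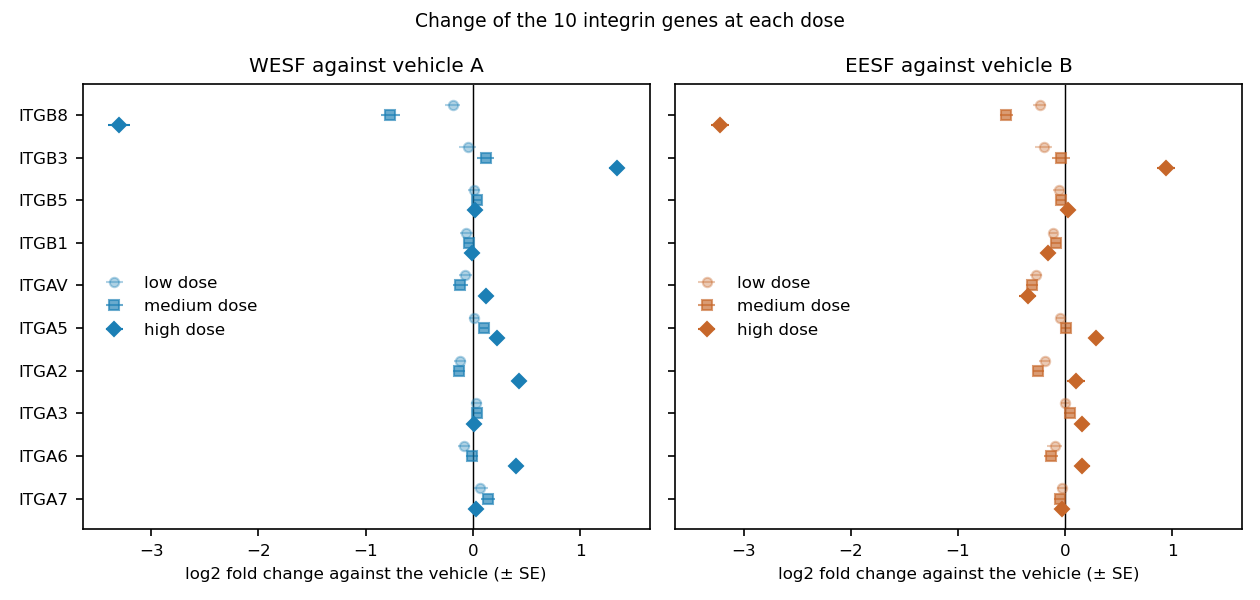
Horizontal axis, log2 fold change of each dose against the vehicle of its batch, with SE as error bars; vertical axis, the 10 integrin genes; circles, squares and diamonds are the low, medium and high dose. ITGB8 lies to the left of 0 at all doses, ITGB3 at 1.34 and 0.94 at the high doses and between -0.20 and 0.12 at the low and medium ones, and the other 8 genes between -0.35 and 0.43.

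The dose comparison of medium with low asks whether ITGB8 moved in libraries outside the high-dose contrasts it was picked from. Earlier results of these data were known when the members were chosen. It fell in both extracts. With WESF the difference of medium from low was -0.58 on the log2 scale, with an SE of 0.068 and an adjusted p of 0.00138 in edgeR's test, and all 3 medium libraries lay below all 3 low ones, as in 10.8% of genes. With EESF it was -0.32, with an SE of 0.047 and an adjusted p of 0.00647, again with no overlap, as in 6.85% of genes. Neither fall reached 1.5-fold. The number of genes past the adjusted threshold in either direction, 122 with WESF and 18 with EESF, moved when 1 library was left out. With WESF it was 6 without WESF medium replicate 3 and 277 without WESF low replicate 3, and with EESF 5 without EESF low replicate 3 and 50 without EESF medium replicate 1. Of 13038 genes tested with WESF, 76 (0.583%) had an adjusted p under 0.05 in the lower direction, and ITGB8 had the 3rd smallest p among genes that were lower at the medium dose. Of 13093 genes tested with EESF, 7 (0.0535%) did, and ITGB8 had the 2nd smallest p among them. The EESF call did not hold with all 4 groups of the batch in the fit (adjusted p = 0.084) or without EESF low replicate 3 (adjusted p = 0.0606), while the difference stayed between -0.35 and -0.29.

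No other member passed the adjusted threshold between the medium and the low dose. Their log2 fold changes lay between -0.04 and 0.18 with WESF (adjusted p 0.276 to 0.963) and between -0.06 and 0.15 with EESF (adjusted p 0.647 to 0.982), in edgeR's test. ITGB3 was at 0.18 (95% interval 0.03 to 0.33) with WESF and at 0.15 (-0.01 to 0.30) with EESF. In both extracts its medium libraries were all above its low ones, as in 10.4% of genes with WESF and 6.85% with EESF. The same held for ITGA5, at 0.10 and 0.06. For ITGAV the intervals were -0.16 to 0.08 and -0.13 to 0.03, which leaves room for small differences only.

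**Figure D3:**
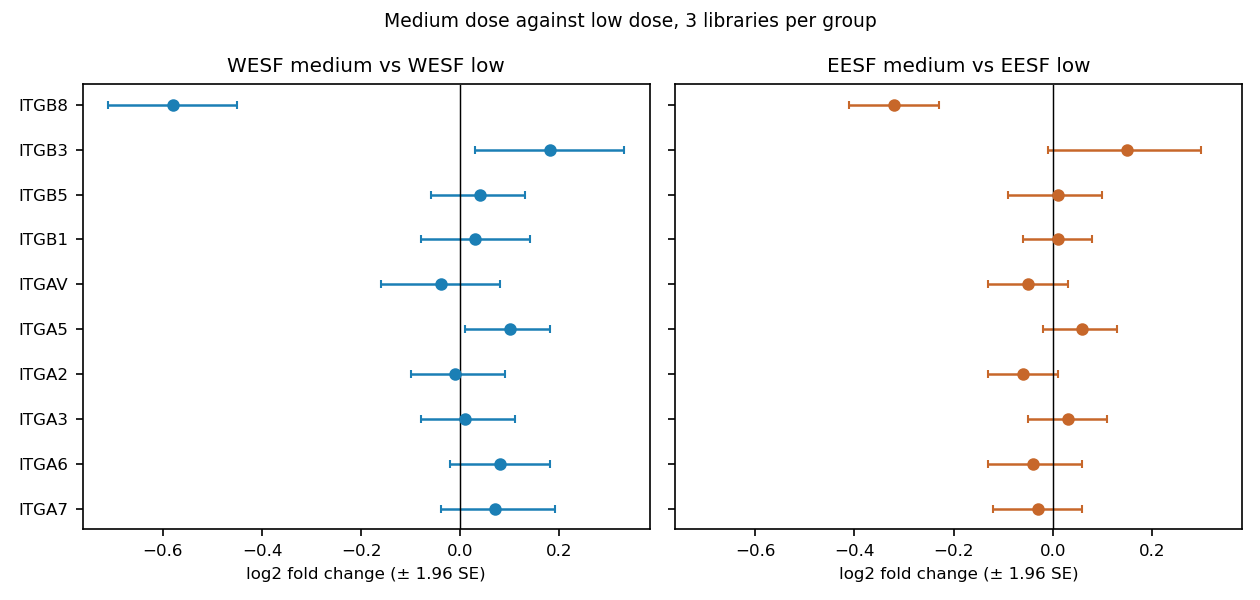
Horizontal axis, log2 fold change of the medium against the low dose of the same extract, points with 95% intervals; vertical axis, the 10 integrin genes; 3 libraries per group. ITGB8 is at -0.58 with WESF and at -0.32 with EESF, and the intervals of the other 9 genes reach at most from -0.16 to 0.33.

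Against the vehicle, ITGB8 was the sole member among the 36 DEGs (0.275% of 13112 genes) at the medium dose of WESF. That number ranged from 9, without WESF medium replicate 3, to 61, without vehicle A replicate 1, and was 23 with DESeq2. ITGB8 fell by 0.77 on the log2 scale (SE 0.086, adjusted p = 0.000577 from edgeR, n = 3 per group), to 58.6% of the vehicle mean, and stood at place 51 of 13112 from the largest fall. At the medium dose of EESF it fell by 0.55 (SE 0.063, adjusted p = 0.000194 from edgeR), to 68.2%, below the 1.5-fold threshold, so that none of the 10 members was among the 0.755% of genes that were DEGs. These 98 DEGs became 50 without EESF medium replicate 3, 164 without vehicle B replicate 1 and 33 with DESeq2. The vehicle libraries in these tests are those of the high-dose comparisons that chose ITGB8, and the treated ones are not.

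At the low doses the difference of ITGB8 was smaller. With WESF it was -0.19 (SE 0.071, unadjusted p = 0.0193 and adjusted p = 0.999 from edgeR), and no gene of 13131 passed the threshold at all. With EESF it was -0.24 (SE 0.064, adjusted p = 0.0341 from edgeR), at 85.3% of the vehicle mean. This last call was lost in 5 of the 6 refits with 1 library removed, all but the one without vehicle B replicate 1, with adjusted p between 0.0819 and 0.146.

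ITGAV and ITGA2 were also lower with the low and medium doses of EESF. ITGAV fell by 0.27 at the low dose (SE 0.057, adjusted p = 0.013 from edgeR) and by 0.31 at the medium dose (SE 0.056, adjusted p = 0.00244 from edgeR), from 160.6 ± 13.4 CPM in vehicle B to 134.3 ± 4.13 and 129.6 ± 3.97 CPM (SD, n = 3). ITGA2 fell as well, with a log2 value of -0.19 at the low dose (SE 0.051, adjusted p = 0.0294) and -0.25 at the medium dose (SE 0.052, adjusted p = 0.00568). With ITGB8 these made 3 of 10 members lower at any fold in each comparison, where 6.24% of all genes at the low dose and 8.48% at the medium dose were lower. These shares depend on single libraries: genes past the adjusted threshold in either direction, 1206 at the low and 1997 at the medium dose, numbered 213 and 791 without vehicle B replicate 2 and 2679 and 2838 without vehicle B replicate 1. In the same comparisons with WESF, ITGAV was at -0.07 and -0.12 and ITGA2 at -0.12 and -0.13, none past the threshold. The low-dose calls of ITGAV and ITGA2 with EESF were lost in 4 and 5 of the 6 fits without 1 library, with adjusted p up to 0.0896 and 0.116, and that of ITGA2 also with all 4 groups of the batch in the fit (adjusted p = 0.113). They held for ITGAV without vehicle B replicate 1 or 3 and for ITGA2 without vehicle B replicate 1. ITGB3 was past the threshold at none of the 4 low and medium doses, with log2 fold changes from -0.20 to 0.12.

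Between the vehicles the 10 genes differed little. ITGB8 had a log2 difference of 0.02 (vehicle B minus vehicle A, SE 0.088), and the other 9 lay between -0.05 and 0.01, with adjusted p = 1 for each in edgeR's test and no gene of 13001 called (0%). When vehicle libraries of the same number shared a term, 478 genes had an adjusted p under 0.05. ITGA3, at -0.05, was then past the threshold (adjusted p = 4.6e-07 from edgeR with the pairing).

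Whether the high doses of the extracts moved the integrins by different amounts was tested as an interaction, the EESF effect less the WESF effect. For ITGB8, which was chosen on both of these falls, it is given as a description with no test, 0.08 (SE 0.16). For ITGAV it was -0.47 (SE 0.11, adjusted p = 0.00452 from edgeR) and for ITGB3 -0.39 (SE 0.11, adjusted p = 0.0141 from edgeR), where ITGAV lay below its vehicle with EESF alone and ITGB3 above it in both, by less with EESF. ITGA2, at -0.33, was past the threshold (adjusted p = 0.0417 from edgeR), but not in 9 of the 12 refits with 1 library removed, where its adjusted p reached 0.107. It held without vehicle A replicate 3, vehicle B replicate 1 or EESF high replicate 1. None of the 10 was past both the fold and the adjusted p threshold, where 3.88% of 13376 genes were. At any fold, 3 of the 10 were lower, against 13.3% of all genes. With a term shared by vehicles of the same number, the pairing moved ITGA6 (-0.24, adjusted p = 0.00749) and ITGB1 (-0.15, adjusted p = 0.0461) past the threshold too in edgeR's test. These tests use the libraries of the rule, compare doses of 500 and 310 μg/mL, and have batch in them.

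Per length, the order of the 10 genes was set by 3 abundant chains. In vehicle A, ITGA5 stood at 173.2 ± 4.15 RPKM, ITGA3 at 164.1 ± 0.633 RPKM and ITGB1 at 118.4 ± 3.84 RPKM (SD, n = 3). ITGA2 followed with 29.4 RPKM and ITGB5 with 15.4 RPKM. ITGA6 at 8.76 and ITGAV at 8.41 RPKM overlapped, and ITGA7 was at 4.85 RPKM. ITGB8, at 3.28 ± 0.39 RPKM, and ITGB3, at 1.68 ± 0.119 RPKM, were the lowest, each without overlap with its neighbours. The same order held in vehicle B. With the longest annotated transcript in place of all exons the first place went to ITGB1, and ITGB8 kept place 9 in both vehicles. ITGA5 then came to place 3, and ITGAV stood at 20.5 RPKM in vehicle A, above ITGA7 at 10.6 and ITGA6 at 10.1 RPKM.

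At the high doses ITGB8 and ITGB3 changed places. ITGB8 came last, at 0.333 RPKM with WESF and 0.356 RPKM with EESF, and ITGB3 ninth, at 4.25 and 3.14 RPKM. The ratio of ITGB3 to ITGB8 per length was 0.525, 0.541 and 0.48 in vehicle A and 13.8, 12.9 and 11.8 with the high dose of WESF. In vehicle B it was 0.514, 0.504 and 0.463, and with the high dose of EESF 9.2, 8.95 and 8.33. At the medium doses it was 0.963 ± 0.144 with WESF and 0.7 ± 0.0402 with EESF (SD, n = 3), above every vehicle library of the batch. With the medium dose of WESF the levels of both genes over all exons overlapped, so that neither was clearly the lower one. Per longest transcript, mean ITGB8 there was 3.25 RPKM and mean ITGB3 2.1 RPKM.

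**Figure D4:**
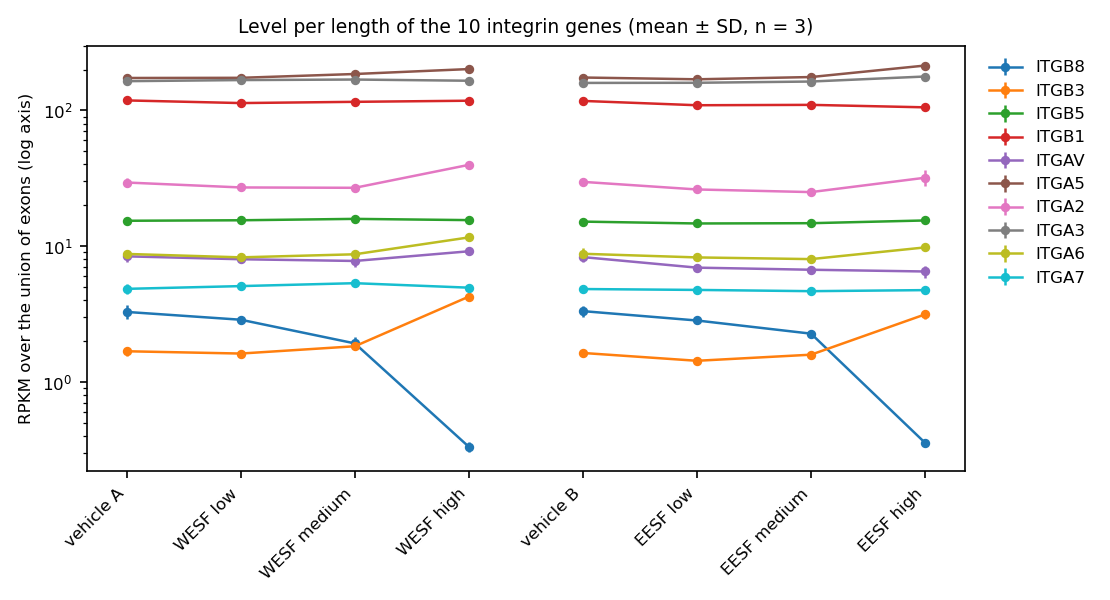
Vertical axis, RPKM over all exons on a log axis; horizontal axis, the 8 groups; points are means of 3 libraries with SD, and lines join the groups of 1 batch. ITGA5, ITGA3 and ITGB1 stay above 100 RPKM in all groups, and the lines of ITGB8 and ITGB3 cross between the medium and the high dose.

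Of the remaining integrin subunits, 16 in number, 8 had enough counts to be tested, and none was a DEG at either high dose. Without 1 library, up to 1 of the 16 was an upregulated DEG with WESF, in 4 of 6 fits, and with EESF, in 2 of 6. Up to 1 was a downregulated DEG with WESF. The genes that pass the count filter change in such fits, so nothing is read from these calls. Against the low dose of WESF, 2 of the 16 were downregulated. The median log2 fold change of these 8 was -0.22 with WESF and -0.30 with EESF. At any fold, 4 were lower with each extract and none higher, where 34.6% of all genes were lower with WESF and 28.7% with EESF. Named after their values were seen, they were the collagen-binding ITGA1 (-0.18 and -0.38) and ITGA11 (-0.29 and -0.41), ITGA4 (-0.26 and -0.48), ITGB4 with WESF (-0.56) and ITGAE with EESF (-0.23), with adjusted p from 2.63e-07 to 0.0449 in edgeR's test. ITGB6, another beta chain that pairs with alpha-v and is known to release TGF-beta, was tested at very low counts. It was at -0.77 (SE 0.34) and -0.38 (SE 0.36), past the threshold in neither. With WESF it passed the count filter through the vehicle libraries alone. With EESF it had 19, 20 and 8 counts, against 16, 14 and 9 in vehicle B. At such counts nothing is read from these values.

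The latent TGF-beta ligands and their carriers are what the alpha-v beta-8 receptor acts on. Of 9 such genes, all were tested with WESF, with 1 upregulated and 1 downregulated DEG, and 8 with EESF, with 2 upregulated. Over all genes tested, 11.1% were upregulated and 13% downregulated DEGs with WESF, and 8.21% and 9.17% with EESF. With EESF, 5 of the 6 fits without 1 library also gave 1 or 2 downregulated DEGs. As other genes of low counts can pass the count filter in these fits, nothing is read from those calls. LTBP4, a matrix protein that binds latent TGF-beta, rose with both, from 12.9, 12.7 and 12.5 CPM in vehicle A to 25.8, 26.3 and 27.2 CPM (log2 fold change 1.06, SE 0.061, adjusted p = 1.56e-10 from edgeR) and with EESF by 0.95 (SE 0.089, adjusted p = 2.67e-06). LRRC32 (GARP), which holds latent TGF-beta at the cell surface, was counted 17, 14 and 23 times in vehicle A and 1, 2 and 0 times with WESF. Over the group this was 6.7% of the vehicle level, with an exact Poisson 95% interval of 1.34 to 20.6% that covers counting error only. In batch B it was counted 10, 8 and 28 times with the vehicle and 5, 8 and 6 times with EESF, too few to be tested there. It passed the count filter with WESF through the vehicle libraries alone, so nothing is read from its call. NRROS, a relative of LRRC32, had 9 to 19 counts per library in vehicle B and 38 to 43 with EESF, and rose by 0.89 (SE 0.25, adjusted p = 0.00912 from edgeR). Set against the low dose it was at 0.35 (adjusted p = 0.235). The median of the list was 0.06 with WESF and 0.08 with EESF.

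The 8 receptors and targets of TGF-beta gave 3 downregulated DEGs with WESF and 2 with EESF, with medians of -0.34 and -0.21. The type II receptor TGFBR2 fell from 78.4, 80.6 and 78.7 CPM to 44.5, 50.2 and 50.8 CPM with WESF (-0.71, SE 0.053) and by 0.64 (SE 0.05) with EESF, and the co-receptor TGFBR3 fell by 0.69 (SE 0.1) and 0.84 (SE 0.087), with adjusted p of at most 1.25e-05 for each. PMEPA1, a TGF-beta target that dampens the signal, fell by 0.72 (SE 0.045, adjusted p = 3.31e-10) with WESF and stood at -0.48, under the fold threshold, with EESF. Both receptors named were thus lower with either extract.

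Among ligands listed for RGD-binding integrins, 1 of 10 tested was a DEG with each extract, against 24.1% and 17.4% of all genes. It was CCN1, a matricellular protein that binds alpha-v integrins. It rose from 517.7, 501.4 and 500.4 CPM to 972.8, 989.8 and 1084 CPM with WESF (log2 fold change 1.00, SE 0.048, adjusted p = 1.43e-11 from edgeR) and by 0.77 with EESF (SE 0.053, adjusted p = 2.32e-07). The list's medians were 0.06 and -0.12. Among the 10 laminin chains tested, the ligands of alpha-3, alpha-6 and alpha-7, 1 was downregulated with EESF and none with WESF. This was LAMA5, which fell with EESF (-0.66, SE 0.061, adjusted p = 2.42e-06) and stood at -0.58 with WESF, just under the fold threshold. The laminin medians were 0.20 and -0.04.

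Inside the cell, 26 of 27 integrin activators and adaptors were tested, with 1 upregulated and 4 downregulated DEGs for each extract and medians of -0.21 and -0.11. Downregulated DEGs made up 13% and 9.17% of all genes. Set against the low dose of EESF, 2 of these genes were downregulated. The tensins, which link the beta chain's tail to actin, fell in both. TNS2 went from 56.3, 60.4 and 57.8 CPM to 23.2, 18.7 and 18.6 CPM with WESF and from 55.1, 64.4 and 59.7 CPM to 27.3, 29.8 and 28.2 CPM with EESF, log2 fold changes of -1.53 (SE 0.07) and -1.07 (SE 0.069). TNS3 fell by 0.93 (SE 0.045) and 1.04 (SE 0.062) and TNS1 by 0.81 (SE 0.058) and 0.77 (SE 0.085), and the adjusted p of all 3 was at most 1.03e-05 with edgeR. The upregulated gene was FERMT3, a kindlin that activates integrins in blood cells, which had 23 to 27 counts in vehicle A and 51 to 55 with WESF (1.37, SE 0.19) and rose by 1.48 (SE 0.24) with EESF. The other downregulated DEGs, outside the naming rule and named after their values were seen, were LIMS2 with WESF and TLN2 with EESF (-0.66, SE 0.063, adjusted p = 2.94e-06). LIMS2, with 24 to 31 counts in vehicle A and 9 to 17 with WESF, passed the count filter through the vehicle libraries alone, so nothing is read from its call. None of the 6 integrin inhibitors on the list was a DEG with either extract (medians -0.11 and 0.06), while at any fold 4 of the 6 with WESF and 5 of the 6 with EESF had an adjusted p under 0.05, beside 68.9% and 58% of all genes.

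At the membrane, 12 of 14 partners and recycling factors were tested. PLAUR, the urokinase receptor, which sits beside integrins, rose from 63.1, 58.5 and 58.3 CPM to 180.4, 169 and 182.7 CPM with WESF and from 63.1, 59.1 and 62.9 CPM to 146.7, 162.6 and 170 CPM with EESF. The rise was 1.56 (SE 0.049) and 1.37 (SE 0.065) on the log2 scale, with adjusted p of 8.85e-14 and 1.58e-08 by edgeR. CAV1, the coat protein of caveolae, fell by 1.02 (SE 0.046, adjusted p = 7.04e-12) and 0.80 (SE 0.047, adjusted p = 8.2e-08). SNX17, a sorting nexin that recycles beta-1 integrins, fell by 0.64 with WESF (SE 0.058, adjusted p = 4.06e-08) and stood at -0.43 with EESF. The medians of the list were -0.03 and 0.05. At the low and medium doses, and between the medium and low dose, none of the genes on these 8 lists was a DEG.

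**Figure D5:**
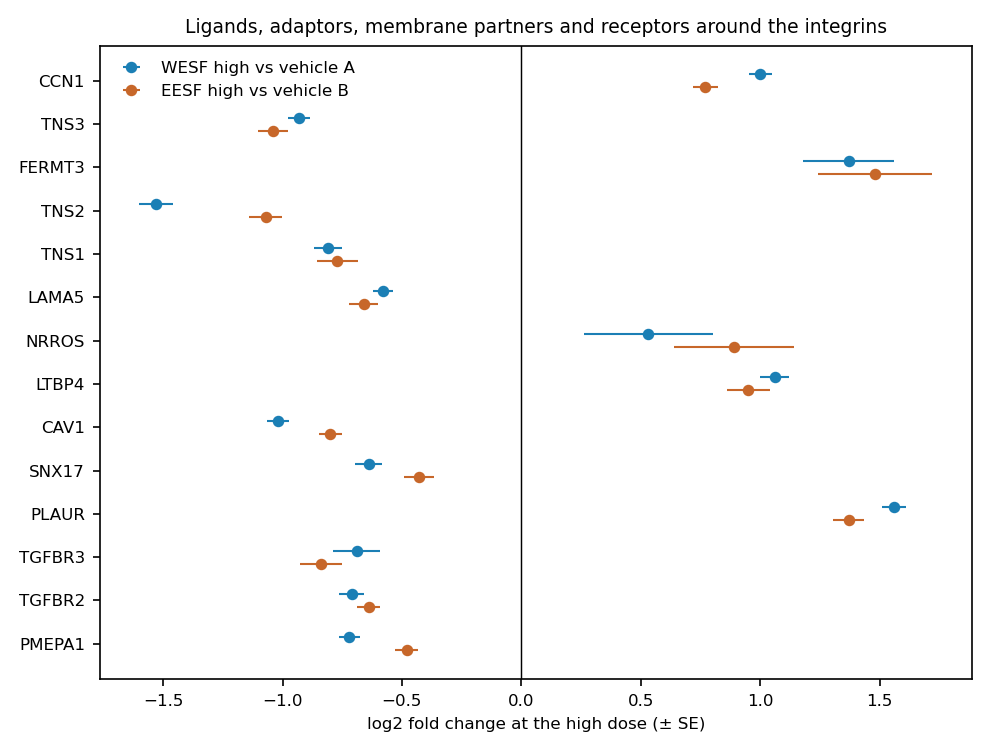
Horizontal axis, log2 fold change at the high dose with SE; vertical axis, genes of the ligand, adaptor, membrane and TGF-beta lists that were DEGs in at least 1 extract, named by rule and reported here. WESF is blue and EESF orange, and every gene lies on the same side of 0 in both, from TNS2 (-1.53) to PLAUR (1.56) with WESF; LRRC32, not tested with EESF, is left out.

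Over the 24 libraries, each set against the vehicle mean of its batch, the genes whose log2 CPM followed ITGB8 most closely of 13515 were EPHA3 (Pearson r = 0.996), ENC1 (0.993), SEMA3A (0.993), DHX9 (0.992) and YTHDC2 (0.992). EPHA3 is an ephrin receptor, ENC1 an actin-binding protein, SEMA3A a secreted guidance cue, and DHX9 and YTHDC2 are RNA helicases. EPHA3 had 68.5 ± 4.49 CPM in vehicle A and 62.4 ± 1.2, 49.8 ± 4.41 and 13.3 ± 0.093 CPM at the low, medium and high dose of WESF (SD, n = 3). These points share libraries and treatments and are dominated by the high doses, so the correlations are a description, and the choice of genes moved with the measure. Spearman's rho put none of these 5 among its first 5 and the 8 group means put 2 there, EPHA3 and SEMA3A. Among the members, ITGB3 (-0.952) and ITGA5 (-0.933) ran most against ITGB8, and ITGAV was at 0.046.

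Several annotated features lie over the 10 genes. The antisense gene ITGB8-AS1 had 3 to 18 counts per library, against a median of 896.5 for ITGB8. It could be tested with EESF alone, where it stood at -1.56 on the log2 scale (SE 0.45, adjusted p = 0.0124 by edgeR). It passed the count filter there through the vehicle libraries alone, so nothing is read from this value. ENSG00000259753, a readthrough annotated over ITGB3 on the same strand, had at most 14.9 counts. METTL7B, on the strand opposite to ITGA7, had 56 to 351 counts and log2 fold changes of -1.88 (SE 0.12) and -1.25 (SE 0.12), while ITGA7 stood near 0. The kit marks strand, but the strand setting of the counting is not given in the sources used here, so reads of ITGA7 and METTL7B may not be fully separated.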

How the data were processed

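Per the labels and the study's methods, the authors trimmed reads (Trim Galore 0.6.6), checked them (FastQC 0.11.9), aligned them to GRCh38 (STAR 2.7.9a) and deposited RSEM 1.3.3 expected counts per gene, with no normalization; RSEM divides ambiguous reads, and 10.9% of values were not whole. Symbols, positions and exon lengths came from GENCODE release 44. Counts were rounded, and the protein-coding genes that passed filterByExpr were tested with edgeR 4.0.16 (TMM, quasi-likelihood, R 4.3.3), 6 libraries per comparison (12 for the difference between extracts) and Benjamini-Hochberg adjustment over all genes. The code was tested on simulated data. DESeq2 1.42.0, other size factors, no filter, all genes, whole-batch fits, a replicate block and leaving out each library were alternatives. CPM used TMM-scaled sizes over genes passing the filter in all groups, likeness log2(CPM + 1). Named were all members, up to 4 DEGs per list and high dose with the largest change, the 5 genes most like ITGB8, and overlapping features. Members and lists were chosen with earlier results of these data known. Vehicle libraries of the same number deviated together (correlations 0.16 to 0.36), so a fit pairing them was added after the data were seen; the pairing comes from the numbers in the labels. Some items are not reported here.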

Additional observations from a re-analysis of the deposited data

Results flagged for a closer look

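Of 27 genes looked at, the 10 integrins and the list genes named by rule that could be tested, 7 differed between the extracts in their change at the high dose by edgeR's interaction test, where 26% of all 13376 genes did. ITGB8 and the list genes were picked from the same high-dose contrasts, so this count and the list genes' p-values are a description only. Each of the 7 is given as the change with EESF minus that with WESF on the log2 scale (n = 3 per group). Among the integrins ITGAV differed by -0.47 (adjusted p = 0.00452), ITGB3 by -0.39 (adjusted p = 0.0141) and ITGA2 by -0.33 (adjusted p = 0.0417). The ITGA2 call was lost in 9 of the 12 refits with 1 library removed, and with the replicate block. ITGA6 and ITGB1 had an adjusted p under 0.05 with DESeq2, but not in the main fit. ITGAV was at 0.12 with WESF and at -0.35 with EESF, ITGB3 was at 1.34 and 0.94, and ITGA2 at 0.43 with WESF and at 0.10 with EESF, where its groups overlapped. With the low dose of EESF in place of vehicle B, ITGAV was at -0.09, ITGB3 at 1.14 and ITGA2 at 0.29. The matricellular protein CCN1 differed by -0.24 (adjusted p = 0.0201). TNS2 (0.46, adjusted p = 0.00631), CAV1 (0.22, adjusted p = 0.0144) and PMEPA1 (0.24, adjusted p = 0.00745) were lower with both extracts, and less so with EESF. The doses were 310 μg/mL of EESF and 500 μg/mL of WESF, and extract, dose and batch cannot be told apart.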

How the results depend on the processing

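The number of integrin DEGs was 2 at each high dose and 1 at the medium dose of WESF under all alternatives run. Leaving out 1 library moved it from 0 to between 0 and 1 at the medium dose of EESF (1 without vehicle B replicate 1) and between the medium and low dose of WESF (1 without WESF medium replicate 1 or 2 or without WESF low replicate 3). ITGB8 changed sign, from 0.02, between the vehicles (-0.06 to 0.11 without 1 library; 0 and -0.05 without vehicle A replicate 2 and 1, -0.06 without vehicle B replicate 3), and in the difference between extracts (-0.02 to 0.15 without 1 library, -0.02 without vehicle A replicate 3, from 0.08). ITGB3 at the medium dose of EESF, -0.04, ranged from -0.08 to 0.01, the latter without EESF medium replicate 1. Of 55 further member values under the threshold, 21 changed sign in some fit, none from more than 0.04, and 7 passed the threshold in some fit. Of the 5 genes most like ITGB8, Spearman's rho kept 0 and group means 2. In all these the cause was not tested.

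With the replicate block, ITGB8 was at -0.77 (adjusted p = 0.00134) for the medium dose of WESF and at -0.58 (0.000445) and -0.32 (0.00153) for medium against low. In no comparison did all 3 pairs of treated and vehicle libraries of the same number deviate together with a correlation over 0.1, so they were taken to share only a number. With the block the difference of ITGA2 between extracts missed the threshold (-0.34, adjusted p = 0.0985). Depth limits LRRC32, NRROS, FERMT3, ITGB6, LIMS2 and ITGB8-AS1, each with few counts per library.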
